A study of Mus musculus with 4 samples.

Results

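The 8 neurotrophin and GDNF signalling genes described here are Bdnf, Ntf3, Ntrk2, Ntrk3, Ngfr, Gfra1, Gfra2 and Ret. They were taken by symbol from a matrix of 31053 genes, and all 8 were present. RNA of single nuclei had been sequenced from the superior colliculus, a midbrain centre that receives input from the retina, of C57BL/6J mice. The groups were 4 ages, 1 before birth (embryonic day 19, E19) and 3 after it (P4, P8 and P21, where P counts days), each with 1 library of nuclei from pooled animals. Their number is not given in the sources used here. As for genotype, the labels name no allele, transgene or treatment, so strain and tissue are what the groups share. The deposited annotation placed the 9724 nuclei in 9 classes and 35 subtypes, among them 13 excitatory (EN1 to EN13) and 12 inhibitory (IN1 to IN12) neuron subtypes, and the genes are followed across these.

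Levels are counts of unique molecular identifiers (UMIs), 1 for each captured RNA molecule, per 1000000 UMIs (CPM) of the summed nuclei of a class or subtype. Brackets after a value hold its 95% interval, exact and for counting error only. With 1 library per stage and classes named from the same counts, no difference was tested and no p-value was computed. Stages are compared through their lone libraries, so their differences lack a check by replicates. Pre-mRNA was counted, so long genes gather more UMIs and levels are compared within a gene, not between genes. Positions are those of GENCODE M21 on GRCm38. Antisense transcripts overlap Bdnf, Ntrk2, Ntrk3 and Gfra1 and were counted as genes of their own, with 2 to 1158 UMIs; the strand setting of the counting is not given in the sources used here.

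Neurotrophins are secreted growth factors that act through Trk receptor tyrosine kinases: BDNF, from Bdnf, binds TrkB (Ntrk2), and neurotrophin-3, from Ntf3, binds mainly TrkC (Ntrk3). Their precursors also bind the neurotrophin receptor encoded by Ngfr, which has no kinase domain. GDNF and its relative neurturin bind GPI-anchored co-receptors, GDNF preferring the product of Gfra1 and neurturin that of Gfra2, and the complex activates the receptor tyrosine kinase Ret. Neurotrophins and GDNF support the survival, branching and synapse formation of neurons, and BDNF is known for its action on the arbors of retinal axons in their midbrain target.

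The promoters of Gfra1 and Ntf3 are shown because 1 neuron subtype led for each in all 4 libraries, EN6 for Gfra1 and IN8 for Ntf3. They are given as the stretch from 250 bases before to 50 after the start of a RefSeq transcript on GRCm38.p6. Capitals mark E-box matches, CANNTG, the motif bound by basic helix-loop-helix factors; the motif reads alike on both strands.
Gfra1 (chr19:58455349-58455648, minus strand): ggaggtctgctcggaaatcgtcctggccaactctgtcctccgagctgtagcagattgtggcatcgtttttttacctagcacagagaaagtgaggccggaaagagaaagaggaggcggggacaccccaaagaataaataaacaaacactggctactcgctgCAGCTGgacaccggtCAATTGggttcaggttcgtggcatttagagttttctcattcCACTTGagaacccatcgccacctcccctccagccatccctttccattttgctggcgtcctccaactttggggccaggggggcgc
Ntf3 (chr6:126166695-126166994, minus strand, the upstream of 2 start sites): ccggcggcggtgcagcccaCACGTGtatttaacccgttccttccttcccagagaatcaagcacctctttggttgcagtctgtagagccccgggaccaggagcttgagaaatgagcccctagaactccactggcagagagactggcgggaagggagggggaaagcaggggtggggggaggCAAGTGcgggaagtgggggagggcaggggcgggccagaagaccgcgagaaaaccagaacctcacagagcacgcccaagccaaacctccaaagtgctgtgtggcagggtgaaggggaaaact
The Gfra1 window holds 3 matches and has a GC content of 54.0%, and the Ntf3 window holds 2 matches at 61.0%. Of 32851 mouse promoter windows of this length, 72.3% hold at least 1 match, with a median of 1 per window and a median GC content of 52.7%, so a match is a common property. A TATA box in the form TATAAA is in neither window on either strand, and 13.6% of all windows hold it. RefSeq windows of this table were matched for 5 of the 8 genes (12 windows, 7 of them for Bdnf), and Ntrk3, Gfra2 and Ret were not matched.

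The libraries held 2249 to 2585 nuclei and 19277512 to 31325079 UMIs, and the median nucleus held 6828 UMIs at E19 and 11745 at P21. Neurons made up 7552 nuclei (77.7%). The E19 library stood apart in Xist, the RNA expressed in female cells: 0.967% of its nuclei had an Xist UMI, against 40.7% to 68.1% in the other 3 libraries. The part of this difference in the values at E19 was not tested. There were 9 cell barcodes shared by 2 libraries, covering 18 nuclei. Of 36 marker genes of the classes, 29 were highest in their own class. All 3 markers of the class labelled epithelial were higher in astrocytes over the libraries together. Ttr, the transthyretin gene of choroid plexus, reached 22.0 CPM in the labelled class, so that class is named here by its label only. In astrocytes these 3 markers summed to 687 CPM at P4 and to 6.45 to 9.84 CPM in the other libraries. Their sum was highest at P4 in every class. Vascular leptomeningeal markers summed to 638 to 1083 CPM in the class labelled epithelial, against 1282 to 3364 CPM in vascular leptomeningeal cells.

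Bdnf (ENSMUSG00000048482, chr2:109674700-109727007, plus strand) was highest in excitatory neurons, at similar levels in the 4 libraries. In excitatory neurons it measured 29.1 CPM in E19 (26.1 to 32.4), 29.8 in P4 (27.1 to 32.7), 31.8 in P8 (28.9 to 35.0) and 27.0 in P21 (24.4 to 29.8). These 4 values lay close together, and their intervals all overlapped. In inhibitory neurons it measured 15.3 CPM (E19), 16.4 (P4), 15.2 (P8) and 10.9 (P21), below the excitatory value of every library. The excitatory level exceeded the inhibitory one 1.91-fold at E19 (1.51 to 2.43), 1.81-fold at P4 (1.46 to 2.27), 2.10-fold at P8 (1.75 to 2.53) and 2.48-fold at P21 (2.02 to 3.06). Excitatory nuclei held 72.6% of the 2197 Bdnf UMIs.

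Among astrocyte nuclei Bdnf measured 10.8 CPM (E19), 10.9 (P4), 16.9 (P8) and 20.3 (P21), from 10, 11, 21 and 33 UMIs. At P21 the astrocyte and pooled neuron levels did not differ beyond counting error, with a ratio of 1.02-fold at P21 (0.693 to 1.45). Neurons exceeded astrocytes 2.26-fold at E19 (1.22 to 4.75). The 90 microglia held 1 Bdnf UMI, or 3.16 CPM (0.0801 to 17.6). A Bdnf UMI was found in 7.03% of astrocytes and 1.11% of microglia, at median depths of 4911 and 3219 UMIs. Neuron markers summed to 307 to 364 CPM in astrocytes, and their part in these few UMIs was not tested. The oligodendrocyte lineage held 5 Bdnf UMIs in 54 nuclei at P4 and 7 in 306 nuclei at P21, a level 7.40-fold (1.85 to 27.1) lower at P21.

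Among neuron subtypes, Bdnf ran from 41.9 CPM (33.1 to 52.4) in EN10 to 5.48 CPM (2.83 to 9.57) in IN7. The 9 highest subtypes were all excitatory, led by EN10, EN9 and EN1, and the 4 lowest, IN8, IN4, IN6 and IN7, were inhibitory. None of the 24 pairs of neighbours in this order differed beyond counting error. Neighbours are the closest pairs and the UMIs are few, so a step between subtypes could be missed. EN1, the most numerous subtype with 1202 nuclei, held 29.5% of the Bdnf UMIs of neurons against 15.9% of neurons, at 38.4 CPM (E19), 36.2 (P4), 42.7 (P8) and 36.4 (P21). EN10 was less even, with 19.0 CPM (E19), 25.9 (P4), 56.4 (P8) and 57.5 (P21), the 2 later libraries higher. The excitatory subtypes lowest in Bdnf were EN5, EN6 and EN13, at 13.5 CPM (9.84 to 18.2), 12.8 CPM (8.93 to 17.8) and 12.4 CPM (7.60 to 19.2). IN7 had 0 Bdnf UMIs in 64 nuclei at P21, which allows a level of up to 3.51 CPM at 3 counts.

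**Figure D1:**
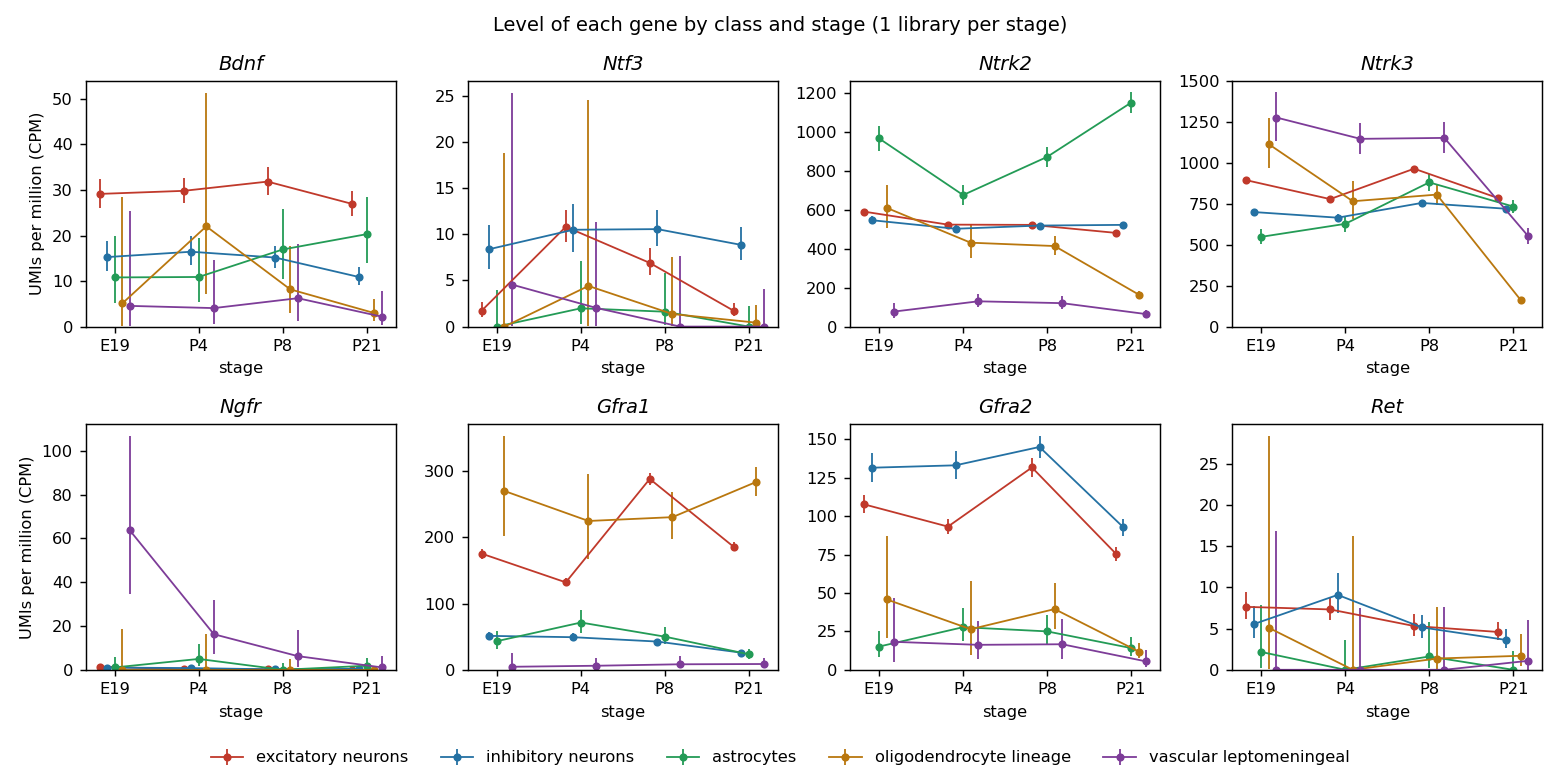
Level of each of the 8 genes in CPM (vertical axes, 1 scale per gene) at the 4 stages (horizontal axes) in 5 classes; points are the single library of a stage and bars are 95% counting intervals. Bdnf stays highest in excitatory neurons, Ntrk2 in astrocytes, and Ngfr has its highest point in vascular leptomeningeal cells at E19, with P4 next.

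Ntf3 (ENSMUSG00000049107, chr6:126101412-126166910, minus strand) was sparse, with 645 UMIs in all, and was concentrated in a few neuron subtypes. Inhibitory neurons held 8.39 CPM in E19 (6.23 to 11.1), 10.5 in P4 (8.13 to 13.3), 10.6 in P8 (8.73 to 12.7) and 8.85 in P21 (7.20 to 10.8), nearly level over the libraries. Excitatory neurons held 1.73 CPM in E19 (1.06 to 2.68), 10.8 in P4 (9.20 to 12.6), 6.90 in P8 (5.55 to 8.47) and 1.71 in P21 (1.11 to 2.53). The excitatory value was low at E19 and P21 and higher at P4 and P8, and at P4 it met the inhibitory one. The inhibitory level exceeded the excitatory one 4.84-fold at E19 (2.83 to 8.58), 1.53-fold at P8 (1.15 to 2.04) and 5.17-fold at P21 (3.31 to 8.37), and the ratio was 0.970-fold at P4 (0.719 to 1.30). Outside neurons, astrocytes held 2 UMIs at P4, 2 at P8 and 0 in the other 2 libraries.

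Subtype IN8 had the highest Ntf3 level in all 4 libraries, 65.5 CPM (E19), 71.3 (P4), 68.4 (P8) and 46.7 (P21), with P21 the lowest but all intervals overlapping. It held 21.7% of the neuronal Ntf3 UMIs in 2.78% of neurons. An Ntf3 UMI was found in 22.9% of IN8 nuclei, from 12.1% at E19 to 32.5% at P21. At P8 a single nucleus held 16 of the 52 UMIs of IN8. The intervals are for counting error only and do not cover such unevenness between nuclei. A nucleus without an Ntf3 UMI may still hold the transcript at this depth. IN4 followed among inhibitory subtypes, at 40.3 CPM (E19), 39.9 (P4), 11.4 (P8) and 43.2 (P21), with P8 below the other libraries. Of IN4 nuclei, 13.6% had an Ntf3 UMI. Without IN4 and IN8 the inhibitory class was left with 1.73 CPM (E19), 3.96 (P4), 5.88 (P8) and 2.10 (P21). IN11 and EN12 held no Ntf3 UMI in any library, which allows levels of up to 2.24 and 1.02 CPM at 3 counts.

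Among excitatory subtypes Ntf3 was highest in EN7 and EN6, which were picked out after their values were seen, as were IN4 and IN8. An Ntf3 UMI was found in 20.8% of EN7 and 13.1% of EN6 nuclei. EN7 is a subtype with 191 of its 226 nuclei in the P4 library; it held 114 of the 161 excitatory Ntf3 UMIs at P4 (70.8%) and none in 33 nuclei at E19, which allows up to 9.64 CPM at 3 counts. Without EN7 the excitatory class measured 1.78 CPM in E19 (1.09 to 2.75), 3.88 in P4 (2.85 to 5.16), 6.90 in P8 and 1.72 in P21. The E19 and P4 intervals without EN7 did not overlap. With 5 CPM added to both values, the E19 to P4 log2 ratio of 1.23 became 0.39. At levels this low the added 5 CPM makes both ratios smaller than those of the levels themselves. EN6 measured 0 CPM (E19), 24.1 (P4), 39.0 (P8) and 6.70 (P21), highest at P8. The intervals at P4 (10.4 to 47.5) and P8 (28.5 to 52.2) overlapped. The 0 of EN6 at E19 comes from 30 nuclei and allows up to 14.9 CPM. With 191 of 226 EN7 nuclei in 1 library, the subtype and that library cannot be told apart.

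Ntrk2 (ENSMUSG00000055254, chr13:58806569-59133970, plus strand), the TrkB gene, was present across neurons at nearly the same level and was highest in astrocytes. Excitatory neurons measured 591 CPM (E19), 524 (P4), 523 (P8) and 482 (P21), and inhibitory neurons 547 CPM (E19), 503 (P4), 519.5 (P8) and 523 (P21). Inhibitory and excitatory levels stayed within 1.09-fold of each other at each stage. Astrocytes measured 967 CPM in E19 (905 to 1033), 676 in P4 (627 to 729), 872 in P8 (821 to 926) and 1151 in P21 (1099.8 to 1205), lowest at P4 and highest at P21. They exceeded all neurons of the same library 1.68-fold at E19 (1.57 to 1.80), 1.31-fold at P4 (1.21 to 1.41), 1.67-fold at P8 (1.57 to 1.78) and 2.30-fold at P21 (2.19 to 2.42); with median-of-ratios scaling the P4 log2 ratio went from 0.38 to −0.047. These counts do not separate the full-length receptor from the truncated form that lacks the kinase domain.

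Over the 25 neuron subtypes Ntrk2 spanned 1.51-fold, from 660.1 CPM (632 to 689) in EN7 to 438 CPM (395 to 484) in IN12, the narrowest range among the 6 genes with a UMI in every neuron subtype. Protoplasmic astrocytes measured 874 CPM (E19), 712 (P4), 936 (P8) and 1236 (P21), and fibrous astrocytes 1328 CPM (E19), 554 (P4), 577 (P8) and 631 (P21). Fibrous astrocytes were thus the higher of the pair at E19 and the lower one in the 3 later libraries. In the oligodendrocyte lineage the order followed maturation, with 550.1 CPM (508 to 594) in precursors (OPC), 158 CPM (131 to 189) in committed and 92.5 CPM (78.1 to 109) in myelinating oligodendrocytes. Microglia gave 120.2 CPM (85.1 to 165) from 38 UMIs. The 3 neuron markers Snap25, Rbfox3 and Syt1 summed to 212 to 666 CPM in microglia, 307 to 364 in astrocytes and 1728 to 3542 in neurons over the libraries, and the part of neuronal RNA in the glial levels was not tested.

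Ntrk3 (ENSMUSG00000059146, chr7:78175959-78738012, minus strand), the TrkC gene, varied far more between subtypes than Ntrk2. At the class level excitatory neurons measured 895 CPM (E19), 779 (P4), 965 (P8) and 785 (P21), and inhibitory neurons 700.0 CPM (E19), 666 (P4), 756 (P8) and 720.3 (P21). The excitatory side was higher in every library, by 1.09- to 1.28-fold. Among neuron subtypes the level ranged 7.94-fold, and 7 of 24 neighbouring pairs differed beyond counting error. IN12 measured 1382 CPM (E19), 1203 (P4), 1330.2 (P8) and 1532 (P21), and EN8 1512 CPM (E19), 1445 (P4), 1458 (P8) and 1165 (P21); their pooled levels of 1370.2 CPM (1294 to 1449) and 1369 CPM (1334 to 1405) did not differ beyond counting error.

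At the other end stood IN7, with 151 CPM (E19), 210.2 (P4), 185 (P8) and 173 (P21), and EN7, with 77.1 CPM (E19) and 186 (P4). Every library value of these 2 subtypes lay far under those of IN12 and EN8. The low Ntrk3 of EN7 and IN7 was not shared by Ntrk2, which was highest in EN7 among neuron subtypes and measured 535 CPM (505 to 567) in IN7. Thinned to 2300 UMIs per nucleus, 27.9% of EN7 nuclei and 93.9% of EN8 nuclei had an Ntrk3 UMI; unthinned these shares were 58.4% and 100.0%.

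Vascular leptomeningeal cells, the fibroblasts of the meninges and vessel walls, had Ntrk3 at 1278 CPM (E19), 1147 (P4), 1153 (P8) and 552 (P21), with P21 below the other 3. The class labelled epithelial gave 859 to 1396 CPM over the libraries from 13 to 40 nuclei each. Astrocytes measured 548 CPM (E19), 628 (P4), 881 (P8) and 734 (P21). Protoplasmic astrocytes had 646 CPM (E19), 775 (P4), 966 (P8) and 777 (P21), and fibrous ones 173 CPM (E19), 115 (P4), 490.4 (P8) and 467 (P21), lower in every library.

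The oligodendrocyte lineage showed the widest contrast in Ntrk3. As a class it measured 1115 CPM (E19), 766 (P4), 807 (P8) and 162 (P21), a level 4.74-fold (3.94 to 5.69) lower at P21 than at P4. Precursors alone stayed high, at 1149 CPM (E19), 886 (P4), 1046 (P8) and 985 (P21), while myelinating oligodendrocytes measured 34.2 CPM (25.7 to 44.6) and committed ones 147 CPM (121 to 177). Precursors made up 77.8% of the lineage at P4 and 20.9% at P21, when 61.1% were myelinating. With subtypes weighted alike, among those present in both libraries, the P4 to P21 log2 ratio of Ntrk3 went from −2.21 to −0.32, and that of Ntrk2 from −1.36 to 0.093.

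Ngfr (ENSMUSG00000000120, chr11:95568818-95587735, minus strand) had 78 UMIs among all 9724 nuclei. Vascular leptomeningeal cells held 26 of them, 14, 8, 3 and 1 in stage order, which gave 63.7 CPM in E19 (34.8 to 107), 16.2 in P4 (7.01 to 32.0), 6.23 in P8 (1.29 to 18.2) and 1.09 in P21 (0.0276 to 6.07). The E19 value lay above the later ones and came from 8 of 36 nuclei. In excitatory neurons the UMIs numbered 17, 3, 3 and 0, with 0 among 682 nuclei at P21 allowing up to 0.205 CPM at 3 counts. Inhibitory neurons held 2 to 6 UMIs per library. Of the 35 subtypes 15 had no Ngfr UMI. No pattern of Ngfr over neuron subtypes was detectable at this depth.

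Gfra1 (ENSMUSG00000025089, chr19:58235604-58455909, minus strand), the GDNF co-receptor gene, was high in 4 excitatory subtypes, picked out after their values were seen, and in the oligodendrocyte lineage. Excitatory neurons measured 175 CPM in E19 (168 to 183), 132 in P4 (126 to 138), 288 in P8 (279 to 297) and 185 in P21 (178 to 193). Inhibitory neurons measured 51.2 CPM (E19), 49.2 (P4), 42.6 (P8) and 25.8 (P21), with P21 the lowest, and the classes did not overlap. The excitatory level exceeded the inhibitory one 3.42-fold at E19 (3.03 to 3.87), 2.68-fold at P4 (2.38 to 3.03), 6.76-fold at P8 (6.14 to 7.45) and 7.18-fold at P21 (6.36 to 8.13). Gfra1 was the only one of 6 members tested that was past 2-fold on the excitatory side in every library, where 0.414% of 10387 genes were. On the inhibitory side 0 of 6 members were, against 0.443% of genes. Here and below, past 2-fold means a log2 ratio of at least 1 in size, with 5 CPM added to both values, for genes reaching 10 CPM; Ngfr and Ret did not reach it. When neurons were classed by their own UMIs of Gad1, Gad2 and Slc32a1 against Slc17a6 and Slc17a7, in place of the deposited labels, the P4 log2 ratio of Gfra1 went from −1.34 to −0.98 and 0 of 6 members were past 2-fold in every library.

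EN6 ranked first for Gfra1 in all 4 libraries, with 1506 CPM (E19), 1081 (P4), 1149 (P8) and 826 (P21). EN13 measured 829 CPM (E19), 767 (P4), 765 (P8) and 393 (P21), EN10 724 CPM (E19), 772 (P4), 591 (P8) and 369 (P21), and EN5 731 CPM (E19), 549 (P4), 608 (P8) and 530.2 (P21). In each of these 4 subtypes the P21 value was the lowest. Their levels over all libraries were 1044 CPM (1006 to 1083), 638 CPM (599.8 to 679), 598 CPM (563 to 634) and 584 CPM (558 to 611); EN6 differed from EN13 beyond counting error, and EN5 from EN4, the next subtype, while EN13 and EN10, and EN10 and EN5, did not. Below them came EN4, at 171 CPM (159 to 185). The lowest subtype was IN9, with 8 UMIs in 173 nuclei and 5.74 CPM (2.48 to 11.3), 182-fold under EN6.

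Detection followed the levels. After thinning to 2300 UMIs, 88.6% of EN6 and 73.6% of EN5 nuclei had a Gfra1 UMI, against 1.73% of IN9; unthinned the shares were 98.7%, 97.3% and 4.05%. EN7, low in Ntrk3, was also low in Gfra1, at 16.6 CPM (12.4 to 21.8). Among inhibitory subtypes IN12 and IN4 had the highest pooled levels. IN4 measured 124 CPM (E19), 82.0 (P4), 132 (P8) and 82.0 (P21), and IN12 111 CPM (E19), 92.6 (P4), 178 (P8) and 8.33 (P21), from 2 UMIs in the last of these, far under IN4.

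The share of these 4 subtypes in the excitatory class differed between libraries. EN5, EN6, EN10 and EN13 made up 10.5% (E19), 14.0% (P4), 34.1% (P8) and 29.9% (P21) of excitatory nuclei and held 43.3% (E19), 57.8% (P4), 78.4% (P8) and 69.6% (P21) of its Gfra1 UMIs. The class was 2.18-fold (2.07 to 2.31) higher at P8 than at P4, a log2 ratio of 1.10; with subtypes weighted alike the ratio was −0.030. Without these 4 subtypes the class measured 108 CPM (E19), 61.8 (P4), 86.4 (P8) and 72.8 (P21).

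**Figure D2:**
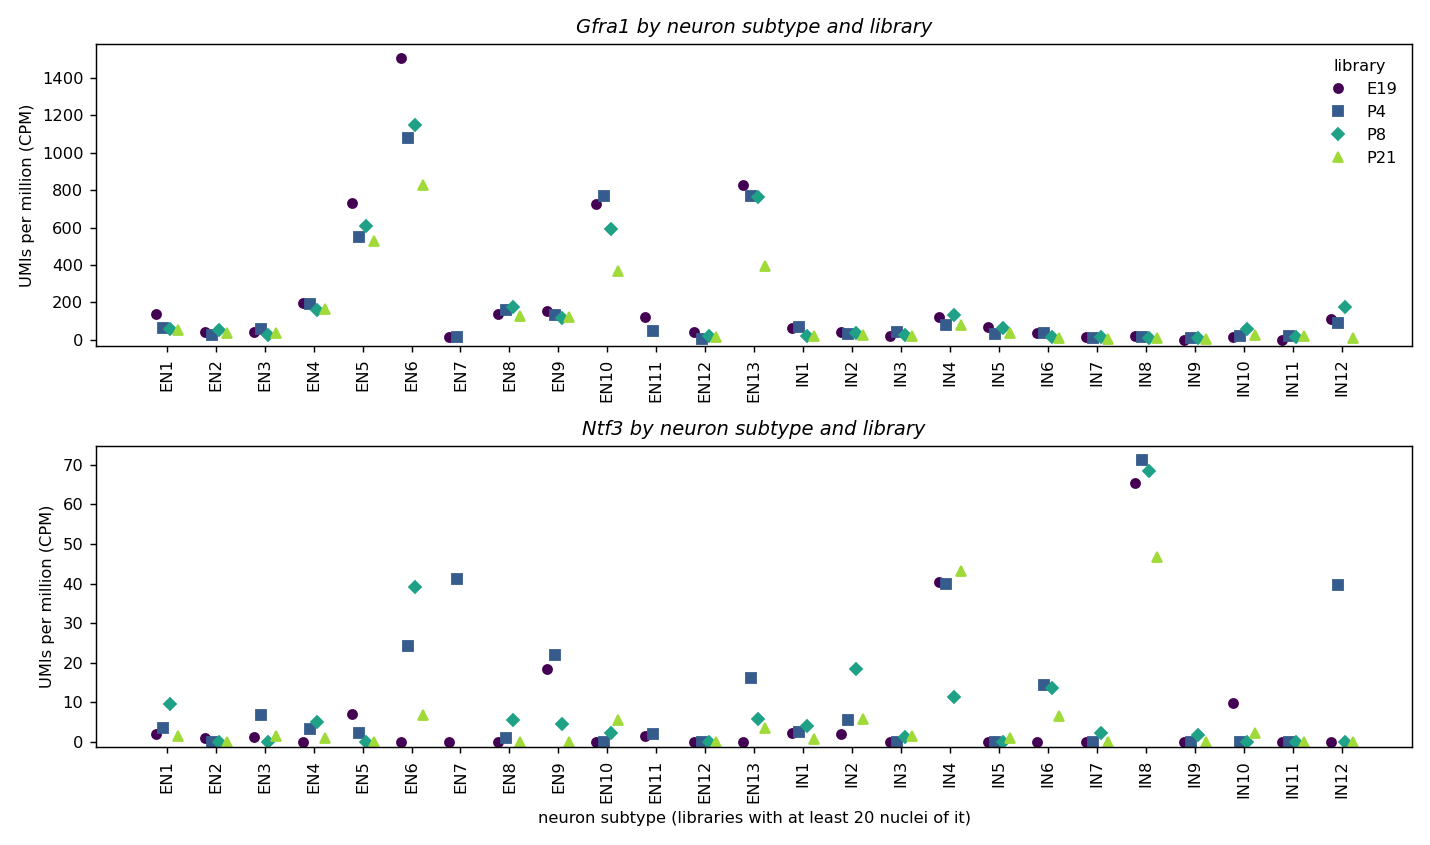
Level of Gfra1 (top) and Ntf3 (bottom) in CPM (vertical axes) in each of the 25 neuron subtypes (horizontal axes), with 1 point per library holding at least 20 nuclei of the subtype. EN6 is the highest point for Gfra1 in all 4 libraries and IN8 for Ntf3, and EN7 has Ntf3 at P4 but none at E19.

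In the oligodendrocyte lineage Gfra1 measured 269.7 CPM (E19), 224 (P4), 230.3 (P8) and 284 (P21), with overlapping intervals at P4 and P21 and a ratio of 1.26-fold (0.949 to 1.71). It was present at all steps of maturation, at 272 CPM (243 to 304) in precursors, 326 CPM (287 to 369) in committed and 236 CPM (213 to 262) in myelinating oligodendrocytes. Fibrous astrocytes measured 142 CPM (E19), 292 (P4), 90.8 (P8) and 35.3 (P21), highest at P4, and protoplasmic astrocytes 17.7 CPM (E19), 7.65 (P4), 41.2 (P8) and 21.4 (P21). Vascular leptomeningeal cells had 7.58 CPM (4.33 to 12.3). The dividing class measured 61.3 CPM (E19), 77.0 (P4), 199.7 (P8) and 483 (P21), from 36, 25, 35 and 10 nuclei; oligodendrocyte precursor markers summed to 562 to 1781 CPM in it and were also highest at P21, while astrocyte markers were highest at E19; their part in this was not tested.

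Gfra2 (ENSMUSG00000022103, chr14:70890120-70979838, plus strand), the neurturin co-receptor gene, was broadly neuronal and slightly higher on the inhibitory side. Inhibitory neurons measured 132 CPM (E19), 133 (P4), 145 (P8) and 92.6 (P21), and excitatory neurons 108 CPM (E19), 93.2 (P4), 132 (P8) and 75.5 (P21). Both classes were highest at P8 and lowest at P21. The inhibitory level exceeded the excitatory one 1.22-fold at E19 (1.12 to 1.34), 1.43-fold at P4 (1.31 to 1.56), 1.10-fold at P8 (1.03 to 1.18) and 1.23-fold at P21 (1.13 to 1.34). Astrocytes measured 15.1 CPM (E19), 27.7 (P4), 25.0 (P8) and 14.1 (P21), under both neuron classes in every library. Neurons exceeded them 7.66-fold at E19 (4.56 to 14.0), 3.79-fold at P4 (2.62 to 5.72), 5.51-fold at P8 (3.88 to 8.13) and 5.87-fold at P21 (3.90 to 9.27). Of 6 members tested 1, Gfra2, was past 2-fold above astrocytes in every library, where 7.35% of 11897 genes were.

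Among neuron subtypes Gfra2 was highest in IN8, at 255 CPM (E19), 272 (P4), 238 (P8) and 110.0 (P21), where P21 was low. IN3 measured 156 CPM (E19), 202 (P4), 241 (P8) and 152 (P21), and EN5, which also had high Gfra1, 149.7 CPM (E19), 180.0 (P4), 182 (P8) and 184 (P21), without the lower P21 value. EN7 was lowest, at 41.2 CPM (34.4 to 49.0), 5.06-fold under the 209 CPM (190.0 to 229) of IN8, and 1 of 24 neighbouring pairs differed beyond counting error. IN9, the lowest subtype for Gfra1, had Gfra2 at 163 CPM (143 to 186), and IN8, with Gfra1 at 12.6 CPM (8.40 to 18.3), led for Gfra2. EN6, the highest for Gfra1, measured 85.7 CPM (75.0 to 97.4) for Gfra2.

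Ret (ENSMUSG00000030110, chr6:118151745-118197718, minus strand) was sparse, with 558 UMIs. Excitatory neurons measured 7.63 CPM in E19 (6.12 to 9.40), 7.32 in P4 (6.01 to 8.83), 5.31 in P8 (4.14 to 6.70) and 4.59 in P21 (3.55 to 5.83), and inhibitory neurons 5.54 CPM in E19 (3.81 to 7.77), 9.08 in P4 (6.89 to 11.7), 5.14 in P8 (3.90 to 6.66) and 3.63 in P21 (2.60 to 4.92). The P21 value was lowest in both classes, and the ratio of inhibitory to excitatory level lay between 0.725-fold at E19 (0.471 to 1.09) and 1.24-fold at P4 (0.886 to 1.72), with intervals that include equality in all 4 libraries. Pooled over libraries, EN11, IN10 and EN8 had the highest neuron subtype levels, 13.7 CPM (8.86 to 20.2), 13.0 CPM (7.85 to 20.4) and 12.9 CPM (9.74 to 16.8), and EN12 the lowest, 0.681 CPM (0.0825 to 2.46). By library EN11 measured 24.7 CPM (E19) and 13.6 (P4), the libraries with enough of its nuclei, IN10 0 CPM (E19), 10.4 (P4), 21.3 (P8) and 8.84 (P21), and EN8 7.57 CPM (E19), 15.7 (P4), 19.2 (P8) and 6.71 (P21). Their order differed between libraries. None of the 24 neighbouring pairs differed beyond counting error. Endothelial cells gave 26.3 CPM (15.0 to 42.7) from 16 UMIs in 62 nuclei, with 2, 6, 5 and 3 UMIs in stage order.

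Signalling through Ret needs a co-receptor, so their UMIs were counted in the same nuclei. In excitatory neurons, Gfra1 or Gfra2 was detected in 74.3% of 284 nuclei with (68.8 to 79.3) and 71.9% of 3809 nuclei without (70.4 to 73.3) a Ret UMI. In inhibitory neurons the same shares were 62.7% of 169 nuclei with (55.0 to 70.0) and 62.3% of 3290 nuclei without (60.6 to 63.9). Nuclei with Ret were deeper, with a median of 14948 against 11379 UMIs in excitatory neurons. Thinned to 2300 UMIs the excitatory shares were 45.9% of 61 nuclei with (33.1 to 59.2) and 38.8% of 4032 nuclei without (37.3 to 40.3), and the inhibitory ones 17.4% of 46 nuclei with (7.82 to 31.4) and 29.6% of 3413 nuclei without (28.1 to 31.2). The intervals of nuclei with and without a Ret UMI overlapped in all 4 comparisons, and those after thinning are wide. A nucleus without a Ret UMI may still hold the transcript at this depth.

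TrkB and TrkC transcripts were found together in most neurons at full depth. After thinning, both were found in 2060 of 4093 excitatory and 1594 of 3459 inhibitory nuclei. Ntrk2 was detected in 97.2% of 3787 nuclei with (96.6 to 97.7) and 93.1% of 306 nuclei without (89.7 to 95.7) an Ntrk3 UMI among excitatory neurons, and after thinning in 68.3% of 3014 nuclei with (66.7 to 70.0) and 68.2% of 1079 nuclei without (65.3 to 71.0). In inhibitory neurons the shares were 95.4% of 3054 nuclei with (94.5 to 96.1) and 91.9% of 405 nuclei without (88.7 to 94.3). Thinned, they were 67.8% of 2351 nuclei with (65.9 to 69.7) and 64.9% of 1108 nuclei without (62.0 to 67.7). In astrocytes the thinned shares were 82.9% of 674 nuclei with (79.9 to 85.7) and 77.4% of 265 nuclei without (71.8 to 82.3).

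Over the 4 libraries together, which the classes fill in different shares, the 9 classes stood in a different order for each gene, and most neighbours in an order did not differ beyond counting error. For Bdnf, excitatory neurons led with 29.4 CPM (28.0 to 30.9), followed by dividing cells, astrocytes and inhibitory neurons, at 15.8 CPM (7.58 to 29.1), 15.6 CPM (12.3 to 19.6) and 14.0 CPM (12.8 to 15.3); of 8 neighbouring pairs, inhibitory neurons and the oligodendrocyte lineage, at 5.41 CPM (3.26 to 8.45), was the 1 that differed. Dividing cells held 10 Bdnf UMIs, and the excitatory interval lay above those of astrocytes and inhibitory neurons, which are not its neighbours. For Ntf3 no neighbouring pair differed, with 9.62 CPM (8.61 to 10.7) in inhibitory and 5.48 CPM (4.87 to 6.14) in excitatory neurons. Dividing cells stood between them, at 6.32 CPM (1.72 to 16.2) from 4 UMIs in 1 nucleus. The inhibitory and excitatory intervals themselves did not overlap. For Ntrk2, astrocytes at 944 CPM (917 to 972) differed from the next class, dividing cells at 585 CPM (527 to 648). Dividing cells did not differ from excitatory neurons, at 527 CPM (521 to 533), nor these from inhibitory neurons, at 522 CPM (515 to 530.0).

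Ntrk3 had 6 of 8 neighbouring pairs apart, a number that also depends on its many UMIs, 79109 in all. It led in the class labelled epithelial, at 1080.2 CPM (1004 to 1161), then vascular leptomeningeal cells at 903 CPM (863 to 945) and excitatory neurons at 851 CPM (843 to 858), and was lowest in endothelial cells, at 77.3 CPM (56.8 to 103). At P21 the order of vascular leptomeningeal cells, at 552 CPM, and excitatory neurons, at 785, was the other way round. Gfra1 led in the oligodendrocyte lineage, at 268 CPM (251 to 285), above excitatory neurons, at 193 CPM (189.8 to 197), and dividing cells, at 155 CPM (126 to 189), each pair apart in the pooled values. In single libraries this order turned: excitatory neurons were higher than the lineage at P8, with 288 against 230.3 CPM, and dividing cells at P21, with 483 against 284 CPM. Gfra2 led in inhibitory neurons, at 123 CPM (119.8 to 127), above excitatory neurons, at 101 CPM (98.2 to 104), and the 7 other classes, the next being dividing cells at 64.8 CPM (46.5 to 87.9), whose 10 nuclei at P21 had the higher level of 133 CPM. For Ret, endothelial cells, with 16 UMIs in 10 nuclei, differed from excitatory neurons, at 6.16 CPM (5.52 to 6.86), and no later pair differed. After thinning, 3.23% of endothelial (0.393 to 11.2) and 1.49% of excitatory nuclei (1.14 to 1.91) had a Ret UMI, with overlapping intervals. For Ngfr, vascular leptomeningeal cells at 12.3 CPM (8.04 to 18.0) did not differ from endothelial cells at 3.29 CPM (0.398 to 11.9), a level from 2 UMIs; the dividing, microglial, epithelial-labelled and oligodendrocyte classes held none.

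**Figure D3:**
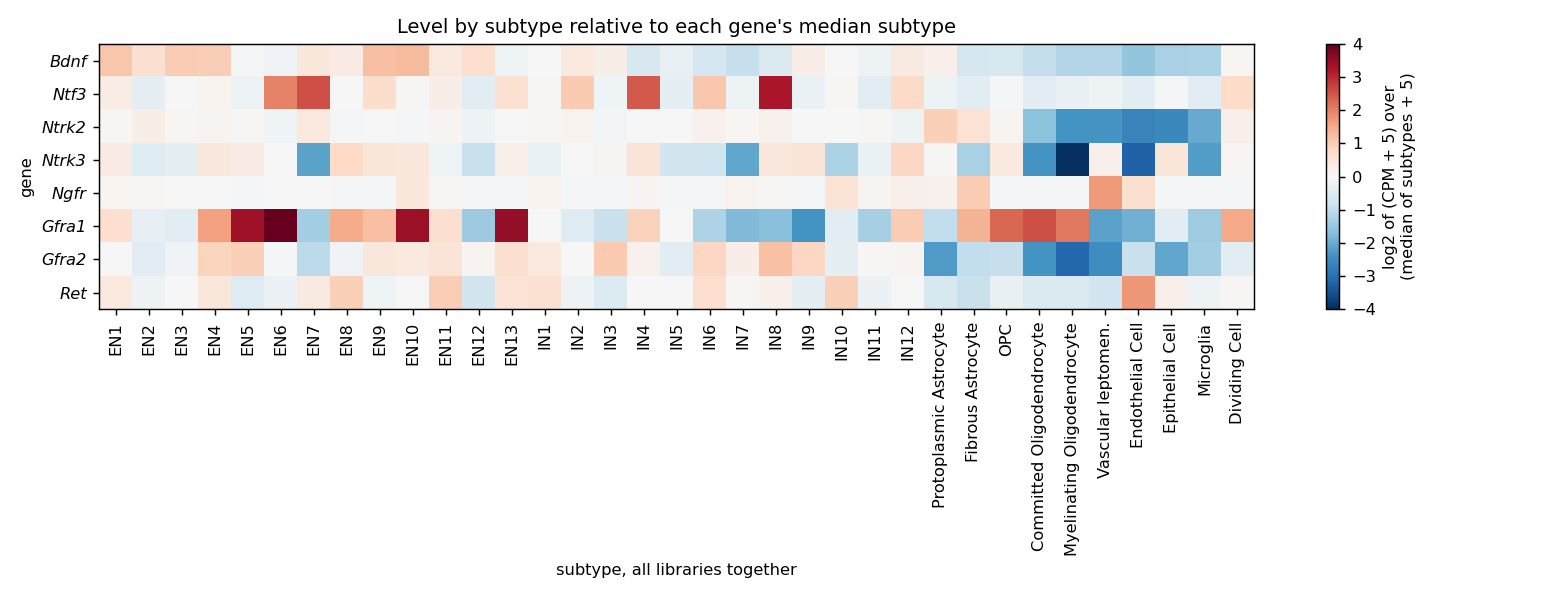
Level of each gene (rows) in each of the 35 subtypes (columns), all libraries together, as the log2 ratio of the level to the gene's median subtype with 5 CPM added to both, in colour from blue (lower) to red (higher). Gfra1 has its strongest red in EN6, EN13, EN10 and EN5, Ntf3 in IN8, EN7 and IN4, and Ntrk3 its strongest blue in myelinating oligodendrocytes.

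Between E19 and P21 none of the 5 members tested was past 2-fold in neurons. In excitatory neurons 0 of 5 members tested were past 2-fold, against 15.5% of 9845 genes, and in inhibitory neurons 0 of 5, against 16.7% of 9951. Ntf3, Ngfr and Ret stayed under 10 CPM at both stages. Gfra1 in inhibitory neurons came closest, 1.98-fold (1.68 to 2.33) lower at P21, and Gfra2 was 1.43-fold (1.31 to 1.55) lower in excitatory and 1.42-fold (1.29 to 1.56) lower in inhibitory neurons. The median log2 ratio of the 5 members was −0.19 in excitatory and −0.35 in inhibitory neurons, beside −0.078 and −0.067 over all genes tested.

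In astrocytes 0 of 5 members were past 2-fold from E19 to P21, against 25.9% of 10716 genes, with a member median of 0.25 beside −0.25 over all genes. With fibrous and protoplasmic astrocytes weighted alike 2 of 5 were, Gfra1 at −1.34 and Gfra2 at 1.02. The 25.9% of genes is the share without that weighting. For Gfra2, the fibrous level at E19 was 10.5 CPM (1.27 to 37.9), from 2 UMIs in 41 nuclei. Ntrk2 was 1.19-fold (1.10 to 1.29) and Ntrk3 1.34-fold (1.20 to 1.49) its E19 level at P21; with subtypes weighted alike the Ntrk2 log2 ratio went from 0.25 to −0.24. Among oligodendrocyte lineage nuclei, between P4 and P21, 3 of 5 members (Bdnf, Ntrk2 and Ntrk3) were past 2-fold, all lower, against 38.6% of 10293 genes in either direction. Of these calls, Ntrk2 was at −0.82 with median-of-ratios size factors, and Bdnf at −0.87 with 20 CPM added and −0.73 after thinning, short of 2-fold. The member and all-gene medians were −1.36 and −0.32. The values with subtypes weighted alike are given with Ntrk3 above.

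**Figure D4:**
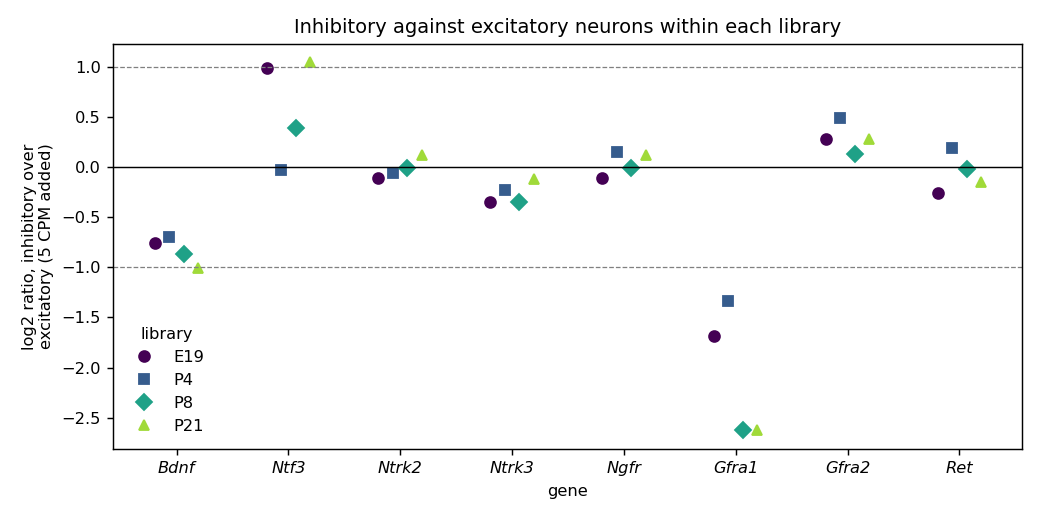
Log2 ratio of the inhibitory to the excitatory neuron level of each gene (vertical axis, 5 CPM added to both values) within each of the 4 libraries (symbols); dashed lines mark 2-fold. All Gfra1 points lie below the lower line and all Bdnf points below 0, and Gfra2 points lie above 0.

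Of 61 other genes of the pathways, all were in the matrix, and the ligands partnering these receptors had few UMIs. Gdnf had 72 UMIs, 57 of them in excitatory neurons; Nrtn, the neurturin gene, had 214, 116 of them in inhibitory neurons; Artn had 16, Pspn 7 and Ntf5 4. Among other co-receptors, Gfra4 had 990 UMIs, at 10.5 CPM in excitatory and 10.4 in inhibitory neurons, and Gfra3 had 37.

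From E19 to P21, 9 of 42 pathway genes tested were past 2-fold in excitatory neurons and 9 of 42 in inhibitory neurons, against 15.5% and 16.7% of all genes. Of these, 8 and 7 were lower at P21. Sdc3, whose product syndecan-3 binds GDNF, went from 125 to 20.1 CPM (log2 ratio −2.38) in excitatory and from 132 to 20.3 CPM (log2 ratio −2.44) in inhibitory neurons. Bex3 and Maged1, partners of the Ngfr protein, were also lower: Bex3 went from 56.5 to 16.8 CPM (log2 ratio −1.49) and from 72.1 to 16.7 CPM (log2 ratio −1.83), and Maged1 from 146 to 59.4 CPM (log2 ratio −1.23) in excitatory neurons. Sh2b2, an adaptor of Trk receptors, went from 59.3 to 18.6 CPM (log2 ratio −1.44) in excitatory neurons, and Rtn4r, the Nogo receptor gene, from 22.5 to 2.65 CPM (log2 ratio −1.84) in inhibitory neurons. Pcsk1, a protease that cleaves prohormones, went the other way, from 11.2 to 49.3 CPM (log2 ratio 1.75) and from 4.70 to 14.8 CPM (log2 ratio 1.03), and Shc3, a Trk adaptor, went from 35.1 to 82.3 CPM (log2 ratio 1.12) in inhibitory neurons.

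In astrocytes 14 of 44 pathway genes were past 2-fold, against 25.9% of all genes, 3 higher and 11 lower at P21. Sorl1, a sorting receptor of the sortilin family, went from 71.3 to 304 CPM (log2 ratio 2.02), Pcsk6, a proprotein convertase, from 11.9 to 64.0 CPM (log2 ratio 2.03), and Kidins220, a scaffold of Trk receptors, from 239.7 to 485 CPM (log2 ratio 1.00). Among the lower genes, Bex3 went from 98.3 to 16.0 CPM (log2 ratio −2.30), Maged1 from 186 to 39.4 CPM (log2 ratio −2.10), Hap1 from 66.9 to 12.3 CPM (log2 ratio −2.06) and Sorcs3 from 75.6 to 17.8 CPM (log2 ratio −1.82). The median log2 ratio of the tested list was −0.11 in excitatory neurons, −0.13 in inhibitory neurons and −0.31 in astrocytes, beside −0.078, −0.067 and −0.25 over all genes.

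The genes most like each member were taken as the 3 with the highest Pearson r of log2 levels over 124 profiles of a subtype in a library, among 10218 genes; the profiles share libraries and differ in depth, so r is a description. Ntrk2 had Fmn2 (0.89) and Ctnnd2 (0.88) among its 3. Gfra2 had Ppfia2 (0.79) and Nrg1 (0.79) among its 3. Gfra1 was nearest to Lmo3 (0.68), A830011K09Rik (0.66) and Ntng2 (0.63), and Ngfr to Postn (0.67), Gm20661 (0.67) and Edn3 (0.66). Bdnf had Miat (0.62) and C230014O12Rik (0.59) among its 3, and Ntrk3 had Lrfn2 (0.58) and Asic2 (0.57). Ntf3 and Ret, both sparse, had weaker partners. Those of Ntf3 were Gm13601 (0.52), Ism2 (0.50) and Nkd2 (0.42), and those of Ret were Dennd3 (0.46), Cables2 (0.44) and March11 (0.44). Ngfr is sparser still, and its values above rest on 78 UMIs, 26 of them in vascular leptomeningeal cells.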

How the data were processed

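Nuclei of superior colliculus pooled from several mice per stage were sequenced with 10x 3' v3 chemistry, and the authors counted them with Cell Ranger 3.0.2 against a pre-mRNA reference of mm10, per the submitters' processing notes and the series' design text. The deposited matrix holds raw UMI counts per gene and nucleus. The deposited annotation gives stage, class, subtype and the percent of mitochondrial UMIs, at most 5 in any nucleus. How nuclei were filtered, doublets treated and classes named is not given in the sources used here, and no doublet caller was run. An extraction protocol gives the embryonic stage also as E10; the sample labels say E19, which was used.

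UMIs were summed per class or subtype and library and divided by the sum of all genes' UMIs, as CPM. Intervals on levels are exact Poisson, on shares Clopper-Pearson and on ratios exact conditional binomial, all at 95% and for counting error only. Comparisons used log2 ratios with 5 CPM added, over all genes reaching 10 CPM in the higher profile. Those between stages were made in classes with at least 50 nuclei at both stages. Detection was also taken after thinning every nucleus to 2300 UMIs (seed 7), which left out none, the smallest nucleus holding 2355. Calculations used Python 3.11.15, numpy 2.4.6, scipy 1.17.1 and pandas 2.3.3 and were tested on simulated data; drawings used matplotlib 3.10.9.

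The alternatives tried were other added constants and minimum levels, median-of-ratios size factors, nuclei or subtypes weighted alike, thinned counts, neurons classed by their own UMIs, excitatory neurons without EN7 and, added after seeing the data, leaving out nuclei above 4 times the median UMIs of their class and library. The pathway genes named are at most 4 per direction and class, the largest ratios past 2-fold. The members and gene lists were chosen with earlier results of these data known. Some genes that the rules for pathway genes and for likeness would name are not reported here.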

Additional observations from a re-analysis of the deposited data

How the results depend on the processing

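Of 98 log2 ratios of the members, none of at least 1 in size changed sign with 1 or 20 CPM added, with median-of-ratios size factors, with nuclei weighted alike or after thinning; 21, 24, 37, 11 and 26 of them moved beyond their counting error. Leaving out the 14 nuclei above 4 times the median UMIs moved none of the ratios beyond their counting error. The minimum level decides only which genes are counted and does not enter a ratio, so dropping or raising it could move none. With subtypes weighted alike 26 of 66 moved and 2 reversed: the P4 to P21 ratio of Ntrk2 in oligodendrocyte lineage nuclei became 0.093, and the P4 to P8 ratio of Gfra1 in excitatory neurons became −0.030. Under that setting 2 members in place of 0 were past 2-fold in astrocytes, Gfra1 at −1.34 and Gfra2 at 1.02. The fibrous Gfra2 level at E19 behind this came from 2 UMIs. In the oligodendrocyte lineage 1 member was past 2-fold in place of 3. In that lineage the number was 2 with 20 CPM added, with median-of-ratios size factors, after thinning and with a minimum of 50 CPM. It was 4 with 1 CPM added. Over all genes the lineage count was 2079 with 20 CPM added and 2020 with a minimum of 50 CPM, against 3969. Above astrocytes, 2 members in place of 1 were past 2-fold in every library with 1 CPM added and with median-of-ratios size factors. With neurons classed by their own UMIs, 0 members in place of 1 were past 2-fold on the excitatory side, where 24 genes were in place of 43. Shares of all genes are given here for the main setting only, so member counts under the other settings are descriptions. Without EN7, the P4 to P8 ratio of Gfra1 was 0.85 and the E19 to P4 ratio of Ntf3 was 0.39.

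Counts over all genes moved by over 1.5 times in these settings. With 20 CPM added, 625 genes were past 2-fold in excitatory neurons, 711 in inhibitory neurons, 1353 in astrocytes, 2079 in the oligodendrocyte lineage, 28 on the inhibitory side, 26 on the excitatory side and 572 above astrocytes, against 1530, 1658, 2777, 3969, 46, 43 and 875. With a minimum of 50 CPM the first 4 were 709, 810, 1390 and 2020. On the excitatory side the count was 73 with 1 CPM added, 73 with subtypes weighted alike and 24 with neurons classed by their UMIs.

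No paired analysis was possible because each stage has 1 library. The same absence of replicates leaves library, litter and stage confounded. Ngfr, Ret and Ntf3, with 78, 558 and 645 UMIs, limit what can be read of their subtypes.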
